A study of Homo sapiens with 6 samples.

Results

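The genes of the NF-kB transcription factor subunits and of the feedback proteins that restrain NF-kB signalling were compared between NE-treated and Ctrl NCI-H1299 cells. The members were taken by gene symbol and were the 5 subunit genes REL, RELA, RELB, NFKB1 and NFKB2 and the 5 feedback genes NFKBIA, NFKBIE, NFKBIZ, TNFAIP3 and BIRC3. All 10 were among the 26025 genes in the table of RNA-seq values, and all 10 had a mean of at least 10 normalized counts, the minimum for the test. NCI-H1299 is an established line of human non-small cell lung carcinoma, grown with 10% fetal bovine serum. Cells of both groups were first starved, in DMEM for which the labels name no serum, over 8 to 12 h, and were then kept in RPMI-1640 with 2% fetal bovine serum for 48 h, either with 10 µM norepinephrine (NE, 3 libraries) or with vehicle (Ctrl, 3 libraries). The vehicle is named DMSO in some labels and PBS in others. The question behind the comparison was how a stress catecholamine alters gene expression in lung cancer cells. The labels do not say whether the 3 libraries of a group came from separate cultures, so p-values measure the spread between these libraries, which may be technical.

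NF-kB proteins bind DNA as dimers. RELA, RELB and REL carry a transactivation domain, whereas NFKB1 and NFKB2 encode the precursors p105 and p100, which are processed to the DNA-binding subunits p50 and p52. In resting cells IkB proteins such as IkB-alpha (NFKBIA) and IkB-epsilon (NFKBIE) hold dimers in the cytoplasm. Receptor signals activate the IkB kinases, IkB is degraded, and the freed dimers enter the nucleus, where they switch on genes for their own inhibitors. The non-canonical arm runs through the kinase NIK (MAP3K14), which promotes the processing of p100 and so frees RELB to p52 dimers, and it is held back by the ubiquitin ligases cIAP1 (BIRC2) and cIAP2 (BIRC3).

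Promoter sequence is shown for the member genes that changed in opposite directions, REL and BIRC3 against NFKB1, and for NFKBIA, the classical feedback target. The sequences come from RefSeq (GRCh38.p14), run 5′ to 3′ on the strand of the gene, and count position -1 as the base before the RefSeq transcription start. Capitals mark matches, on either strand, to the kB consensus motif of NF-kB dimers and to TGACG, the core of the cAMP response element. For REL only the 30 bases around the matches, from -61 to -32, are shown (chr2:60881513-60881542, plus strand). They lie before the RefSeq start but inside the gene as GENCODE annotates it, which begins further upstream. For NFKB1 the bases from -250 to -30 are shown (chr4:102501109-102501329, plus strand), and for BIRC3 (chr11:102317234-102317483, plus strand) and NFKBIA (chr14:35404750-35404999, minus strand) those from -250 to -1.
REL: cctaCGTCAgccgcGGGAAATTCCCctccc
BIRC3: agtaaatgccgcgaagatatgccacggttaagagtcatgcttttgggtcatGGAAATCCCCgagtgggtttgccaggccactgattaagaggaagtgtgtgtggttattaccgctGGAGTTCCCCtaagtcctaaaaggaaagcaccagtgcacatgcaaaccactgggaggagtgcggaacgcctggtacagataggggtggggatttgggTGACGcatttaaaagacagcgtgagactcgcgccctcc
NFKB1: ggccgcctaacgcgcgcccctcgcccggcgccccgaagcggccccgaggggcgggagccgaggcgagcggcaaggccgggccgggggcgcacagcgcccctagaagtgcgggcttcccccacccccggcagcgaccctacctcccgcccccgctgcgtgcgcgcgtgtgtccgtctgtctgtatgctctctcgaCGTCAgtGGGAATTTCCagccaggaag
NFKBIA: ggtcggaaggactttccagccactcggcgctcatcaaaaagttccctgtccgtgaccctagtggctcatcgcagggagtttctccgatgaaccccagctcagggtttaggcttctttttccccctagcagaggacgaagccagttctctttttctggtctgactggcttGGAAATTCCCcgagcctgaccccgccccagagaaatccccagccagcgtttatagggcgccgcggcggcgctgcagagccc
REL held a pair of overlapping kB matches from -47 to -37 and a TGACG match from -57 to -53. BIRC3 held kB matches from -199 to -190 and from -135 to -126, with TGACG from -38 to -34. NFKB1 held a kB match from -49 to -40 next to TGACG from -56 to -52, and NFKBIA a kB match from -81 to -72. RefSeq windows of 250 bases before the start were at hand for 8 of the 10 members, not for RELB and NFKBIE, and the kB consensus was present in 7 of these 8, RELA being without one. Of all 35114 such windows of human genes 9.96% held it, but the 8 members had 13 windows between them, of which 9 held it. TGACG lay in the windows of 5 of the 8 members (BIRC3, NFKB1, NFKB2, REL and RELA) and in 7 of their 13 windows, beside 21.2% of all windows, while the full palindrome TGACGTCA was in none of the 8 and in 1.65% of all. Both the kB consensus and TGACG were thus held by REL and BIRC3, which were higher after NE, and by NFKB1 and NFKB2, which were lower. RELA, also lower, held TGACG without the kB consensus, and the lower genes RELB and NFKBIE had no window.

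The values were normalized counts, that is, the reads of a gene over the size factor of its library. The libraries held 16852751 to 17979206 reads on genes. Ctrl replicate 3 stood apart, in that 7305 genes had no read there, beside 4829 in replicate 1 and 4833 in replicate 2. Over all genes the difference between NE and Ctrl followed the GC content of the exons (Spearman correlation -0.69 over 12581 protein-coding genes, a description across genes of shared libraries). Each difference is therefore also given after removal of each library's trend on exon GC content, called the GC-corrected value. This correction can also take out changes made by NE. The keratins KRT8 and KRT18 and the mesenchymal marker VIM were expressed, while the epithelial markers EPCAM, CDH1 and KRT19 and the lung marker NKX2-1 were under the minimum mean, and the summed counts of the leukocyte markers were 35.6 to 85.9 per library.

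In NE-treated cells REL and BIRC3 were more than 4-fold higher, and RELA, RELB, NFKB1, NFKB2 and NFKBIE were lower. NFKBIA, NFKBIZ and TNFAIP3 did not pass the test. Thus 7 of the 10 members were called by limma (adjusted p under 0.05 by the Benjamini-Hochberg method), whereas 50.1% of the 15013 genes tested were called. By direction, 2 members were higher, against 24.6% of all genes, and 5 were lower, against 25.5%. REL, BIRC3 and NFKBIE also differed by at least 2-fold, against 14.0% of all genes, with 2 of them higher (7.47% of all genes) and 1 lower (6.55%). In bulk RNA a change in every cell and a change in the share of cells that express a gene cannot be told apart. The median log2 difference of the members was -0.60, beside 0.01 for all genes tested. The NE and Ctrl values of 9 members did not overlap, against 58.6% of all genes, with 3 members above Ctrl (29.7% of all genes) and 6 below (28.9%). For each of these 9 the exact two-sided permutation test gave p = 0.1, the smallest that 3 against 3 libraries allow. After GC correction 4 members kept their call, against 32.2% of 14955 genes. These were REL and BIRC3, higher (14.5% of all genes), and NFKB1 and NFKBIE, lower (17.7%). Past 2-fold on that scale were REL, BIRC3 and NFKB1, against 5.98% of all genes, with 2 higher (3.67%) and 1 lower (2.31%). Without Ctrl replicate 3 all 10 members were called, against 64.4% of all genes, with 3 higher (31.8%), 7 lower (32.6%) and again 3 past 2-fold (20.8%), of which 2 were higher (10.7%) and 1 lower (10.1%).

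**Figure D1:**
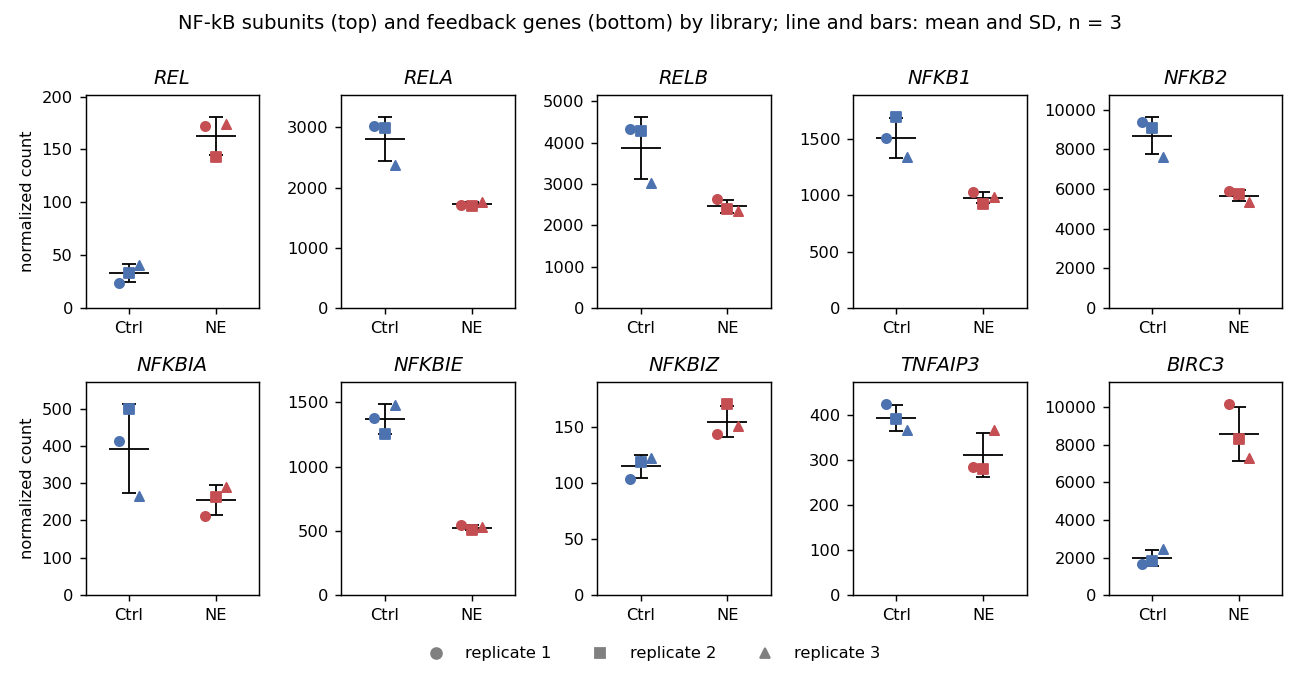
Normalized counts (y axis, linear from 0, a scale of its own in each panel) of the 5 subunit genes and the 5 feedback genes in the 3 Ctrl (blue) and 3 NE (red) libraries, with symbols for the replicate number and bars for the mean and SD. REL rises from a mean of 32.8 to 163 and BIRC3 from 1985 to 8586, the NE points of RELA, RELB, NFKB1, NFKB2 and NFKBIE lie below all Ctrl points, and only NFKBIA overlaps.

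REL (ENSG00000162924, chr2:60881491-60931612, plus strand, hg38), which encodes c-Rel, the subunit best known from lymphocytes, showed the largest difference of the members. Its normalized counts were 24.1, 33.2 and 41.2 in Ctrl replicates 1 to 3 and 172, 142 and 174 in the NE replicates. The groups lay far apart, and the lowest NE value was more than 3 times the highest Ctrl value. The mean was 32.8 ± 8.54 (SD, n = 3) in Ctrl and 163 ± 17.6 in NE, 4.96-fold higher. The log2 difference was 2.30 (SE 0.24, 95% interval 1.75 to 2.85, limma adjusted p = 0.000179), which placed REL 107th from the top among the 15013 genes. Only 23 to 42 reads stood behind each Ctrl value, so the level in Ctrl is coarse. The exons of REL have a GC content of 38.0%, and the GC-corrected log2 difference was 1.67 (adjusted p = 0.000552). Leaving out each library in turn gave 2.10 to 2.48. REL shares 5702 exon bases with the long noncoding RNA ENSG00000267520 on the same strand, which was not analysed here, so its count may hold or lack reads of these bases.

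RELA (ENSG00000173039, chr11:65653599-65663090, minus strand), the p65 subunit of the canonical dimer, had 3024, 2998 and 2378 normalized counts in Ctrl and 1716, 1703 and 1759 in NE. All 3 NE values lay below the lowest Ctrl value, that of replicate 3. RELA was 1.62-fold lower, with a log2 difference of -0.69 (SE 0.12, adjusted p = 0.00144). Its exons have a GC content of 58.3%, and after GC correction the difference was -0.14 (95% interval -0.31 to 0.04, adjusted p = 0.201), so the call was lost. RELB (ENSG00000104856, chr19:45001461-45038192, plus strand), the partner of p52 in the non-canonical arm, had 4324, 4272 and 3015 normalized counts in Ctrl and 2641, 2396 and 2348 in NE. Here too the NE values lay below all Ctrl values, and Ctrl replicate 3 was the lowest of its group. The log2 difference of RELB was -0.64 (SE 0.15, adjusted p = 0.00621), but 0.016 after GC correction (95% interval -0.19 to 0.22, adjusted p = 0.910), at an exon GC content of 63.2%.

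NFKB1 (ENSG00000109320, chr4:102501330-102617302, plus strand), which encodes p105, had 1502, 1688 and 1334 normalized counts in Ctrl and 1028, 926 and 979.6 in NE. It was 1.54-fold lower, with a log2 difference of -0.62 (SE 0.12, adjusted p = 0.00254). NFKB1 was the one subunit gene of low exon GC content (40.9%) that was lower in NE, and its GC-corrected difference was larger, -1.11 (95% interval -1.44 to -0.79, adjusted p = 0.000548). The correction used merged exons, which span 15679 bases for NFKB1, beside 4055 for its canonical transcript. A correction on the GC content of canonical transcripts was not tested. NFKB2 (ENSG00000077150, chr10:102394110-102402524, plus strand), which encodes p100, had 9351, 9064 and 7626 normalized counts in Ctrl and 5902, 5739 and 5362 in NE. The groups did not overlap and NFKB2 was 1.53-fold lower, with a log2 difference of -0.61 (SE 0.11, adjusted p = 0.00172). After GC correction the difference of NFKB2 was 0.017 (95% interval -0.18 to 0.21, adjusted p = 0.898), at 61.6% GC. The uncorrected differences of RELA, RELB, NFKB1 and NFKB2 thus lay close together, from -0.69 to -0.61, and only that of NFKB1 was called on both scales.

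**Figure D2:**
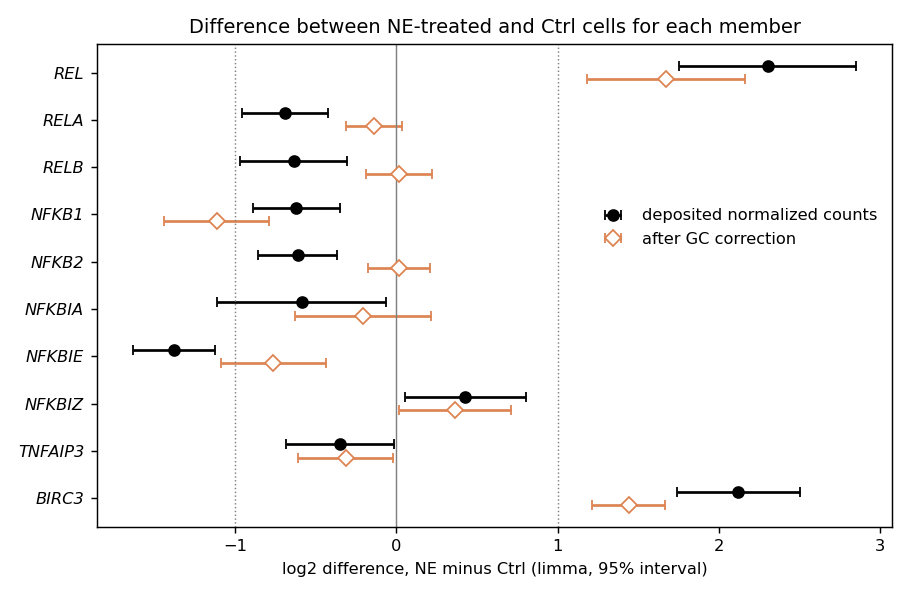
Log2 difference between NE and Ctrl (x axis) for each member, from the normalized counts (filled black circles) and after GC correction (open orange diamonds), with 95% intervals from limma, 3 libraries a group; dotted lines mark 2-fold. REL and BIRC3 stay right of the 2-fold line on both scales, RELA, RELB and NFKB2 move from about -0.6 to near 0 and NFKB1 moves from -0.62 to -1.11.

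In proportion to the other subunits REL stood out. The count ratio of RELA to REL was 126, 90.3 and 57.8 in Ctrl and 9.98, 12.0 and 10.1 in NE, with the highest ratio in NE far below the lowest in Ctrl. This ratio is not GC corrected, and exon GC content is 58.3% for RELA and 38.0% for REL. After GC correction the log2 differences were -0.14 for RELA and 1.67 for REL, beside -0.69 and 2.30 before it. Per length (FPKM over merged exons), REL made up 0.04, 0.05 and 0.08% of the summed level of the 5 subunit genes in Ctrl and 0.43, 0.38 and 0.47% in NE. REL thus remained a small share of the subunit transcripts in every library. Without GC correction the shares of the other subunits moved little. NFKB2 held 45.1 ± 1.80% in Ctrl and 45.6 ± 0.86% in NE (SD, n = 3), RELB 37.2 ± 2.09% and 36.9 ± 0.84%, RELA 14.9 ± 0.18% and 14.2 ± 0.79%, and NFKB1 2.79 ± 0.22% and 2.80 ± 0.12%. Shares after GC correction were not computed. On that scale the log2 difference was -1.11 for NFKB1, beside -0.14 for RELA, 0.016 for RELB and 0.017 for NFKB2. The size of a share also depends on the gene model. On the length of the canonical transcript NFKB2 held 47.5% in Ctrl and 48.1% in NE and RELB 28.0 and 27.9%. RELA held 18.3 and 17.6%, NFKB1 6.14 and 6.17% and REL 0.05 and 0.37%.

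NFKBIE (ENSG00000146232, chr6:44258166-44265788, minus strand), the gene of IkB-epsilon, which binds RELA and REL dimers in the cytoplasm, showed the largest fall of the members. Its normalized counts were 1379, 1249.6 and 1477 in Ctrl and 542, 503 and 530.0 in NE. The lowest Ctrl value was more than 2 times the highest NE value. The mean fell 2.61-fold, from 1369 ± 114 to 525 ± 19.9 (SD, n = 3), a log2 difference of -1.38 (SE 0.11, 95% interval -1.63 to -1.13, adjusted p = 6.4e-05). NFKBIE stood 302nd from the bottom of the 15013 genes. At 61.0% exon GC its difference was -0.76 after GC correction (adjusted p = 0.00376), still called but under 2-fold. The count ratio of RELA to NFKBIE was 2.19, 2.40 and 1.61 in Ctrl and 3.17, 3.39 and 3.32 in NE.

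NFKBIA (ENSG00000100906, chr14:35401079-35404749, minus strand), which encodes IkB-alpha, the inhibitor resynthesised soon after NF-kB activation, had 414, 499 and 265 normalized counts in Ctrl and 211, 262 and 291 in NE. The groups overlapped, because Ctrl replicate 3 lay between the NE libraries, and NFKBIA was the only member for which they did. Its log2 difference was -0.58 (SE 0.23, 95% interval -1.11 to -0.06) and the limma adjusted p was 0.0616 (exact permutation p = 0.2). On the recovered reads edgeR gave an adjusted p of 0.0446 and DESeq2 0.0250, limma after quantile normalization 0.0481, and without Ctrl replicate 3 limma gave -0.84 with an adjusted p of 0.000297. After GC correction the difference was -0.21 (adjusted p = 0.427), and -0.40 when Ctrl replicate 3 was also left out (adjusted p = 0.0482). The count ratio of RELA to NFKBIA overlapped between the groups, at 7.31, 6.01 and 8.99 in Ctrl and 8.12, 6.49 and 6.05 in NE.

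NFKBIZ (ENSG00000144802, chr3:101827991-101861022, plus strand) encodes IkB-zeta, a nuclear member of the family that modulates p50 target genes rather than retaining dimers. It had 104, 119 and 122 normalized counts in Ctrl and 144, 170.5 and 151 in NE, all NE values being above all Ctrl values. The log2 difference of 0.43 (SE 0.17, 95% interval 0.05 to 0.80) missed the threshold with an adjusted p of 0.0564, and the difference was called in 4 of the 28 alternatives: with a minimum mean of 50 (adjusted p = 0.04998), with eBayes without trend (0.0353), on recomputed FPKM (0.0309) and without Ctrl replicate 3 (0.0275). After GC correction it was 0.36 (adjusted p = 0.103). NFKBIZ shares 194 exon bases with NXPE3 on the same strand, which had 958 to 1579 counts, so reads in the shared bases could not be assigned to either gene with certainty.

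TNFAIP3 (ENSG00000118503, chr6:137867214-137883314, plus strand) encodes A20, a ubiquitin-editing enzyme that shuts off signalling upstream of the IkB kinases. Its normalized counts were 423, 389.9 and 366.5 in Ctrl and 285, 281 and 366.4 in NE, so that the groups were apart by less than 1 count between replicate 3 of each. The log2 difference was -0.35 (SE 0.15, 95% interval -0.68 to -0.01, adjusted p = 0.0777), and -0.31 after GC correction (adjusted p = 0.0942). Without Ctrl replicate 3 the adjusted p was 0.0243, and without NE replicate 3 it was 0.0387 (0.0417 after GC correction).

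BIRC3 (ENSG00000023445, chr11:102317484-102339403, plus strand) encodes cIAP2, a ubiquitin ligase at TNF receptor complexes. Its normalized counts were 1663, 1822 and 2471 in Ctrl and 10150.2, 8287 and 7321 in NE. The lowest NE value was close to 3 times the highest Ctrl value, again that of replicate 3. The mean rose 4.32-fold, from 1985 ± 428 to 8586 ± 1438 (SD, n = 3), a log2 difference of 2.12 (SE 0.17, 95% interval 1.74 to 2.50, adjusted p = 5.8e-05). BIRC3 was 133rd from the top of the 15013 genes. At 36.6% its exon GC content was the lowest of the members, and the GC-corrected difference was 1.44 (95% interval 1.21 to 1.67, adjusted p = 1.4e-05). Leaving out each library in turn gave 1.99 to 2.29.

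BIRC2, the paralog of BIRC3 that encodes cIAP1, begins 7807 bases beyond the end of BIRC3 on the same strand (chr11:102347211-102378670), and its exon GC content is 39.0%. It had 691, 722 and 1014 normalized counts in Ctrl and 2619, 2665 and 2521 in NE, with a log2 difference of 1.71 (SE 0.15, adjusted p = 8.8e-05) and 1.11 after GC correction (adjusted p = 3.1e-05). Both neighbouring paralogs were thus higher in NE on both scales. The count ratio of BIRC3 to BIRC2 was 2.41, 2.52 and 2.44 in Ctrl and 3.88, 3.11 and 2.90 in NE. On the opposite strand BIRC3 shares 126 exon bases with a long noncoding RNA that was not analysed here, RELA 103 with RELA-DT (11.6 to 35.3 counts per library) and TNFAIP3 95 with WAKMAR2 (0 to 11.9 counts), and without a stated strand setting such reads cannot be told apart. Any reads shared by the paralogs BIRC3 and BIRC2 could also be split between them. The sequences of the paralogs were not compared, and how such reads were treated is not given in the sources used here.

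**Figure D3:**
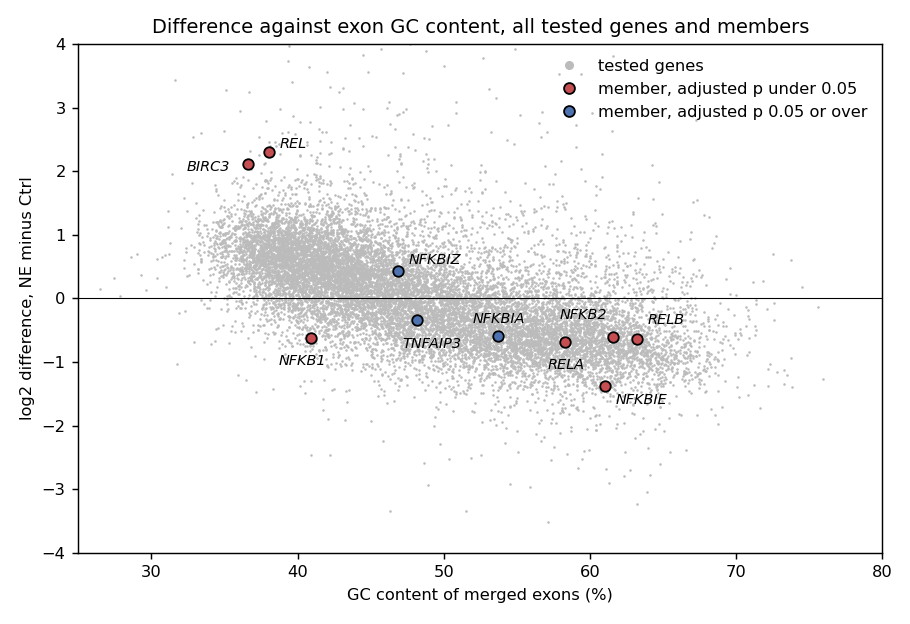
Log2 difference between NE and Ctrl (y axis) against the GC content of the merged exons (x axis, percent) for the tested genes (grey) and the 10 members (red, called; blue, not called); 10 of the 14955 genes lie outside the axes. REL and BIRC3 lie above the bulk of genes of like GC content, NFKB1 and NFKBIE below it, and RELA, RELB and NFKB2 within it.

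The members' median exon GC content was 51.0%, beside 47.5% for the tested genes, and the members spanned 36.6 to 63.2%. Both strongly raised members had the lowest GC contents, and RELA, NFKBIE, NFKB2 and RELB, which were lower in NE, the highest 4. The difference across libraries went along with GC content within the Ctrl group also: Spearman correlations with exon GC content were -0.59 for Ctrl replicate 3 minus replicate 1 and -0.54 for replicate 3 minus replicate 2. Ctrl replicate 3 was the Ctrl library nearest to the NE libraries for REL, RELA, RELB, NFKB1, NFKB2, NFKBIZ, TNFAIP3 and BIRC3, and for NFKBIA it fell among them. For NFKBIE it was the farthest. After GC correction the median of the members was -0.06, beside -0.01 for all genes.

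The levels were compared between genes per length. In Ctrl the order of mean FPKM over merged exons was NFKB2 (86.2), RELB (71.5), NFKBIE (29.5), RELA (28.4), BIRC3 (14.8), NFKBIA (6.40), NFKB1 (5.33), TNFAIP3 (3.39), NFKBIZ (1.08) and REL (0.107). The neighbours NFKB2 and RELB, NFKBIE and RELA, and NFKBIA and NFKB1 overlapped between libraries, and the other neighbours did not. In NE the order was BIRC3 (69.7), NFKB2 (61.9), RELB (50.1), RELA (19.3), NFKBIE (12.4), NFKBIA (4.61), NFKB1 (3.81), TNFAIP3 (2.96), NFKBIZ (1.61) and REL (0.580), with overlap between BIRC3 and NFKB2 and between NFKBIA and NFKB1. BIRC3 thus moved from the fifth place to the level of the most abundant member, and REL stayed at the lowest level in spite of the largest fold difference. The scale depends on the gene model. On the length of the canonical transcript NFKB2 was at the top in both groups, with BIRC3 behind it in NE (75.9 against 115 FPKM) and overlapping with RELB, and NFKB1 moved up to the fifth place.

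**Figure D4:**
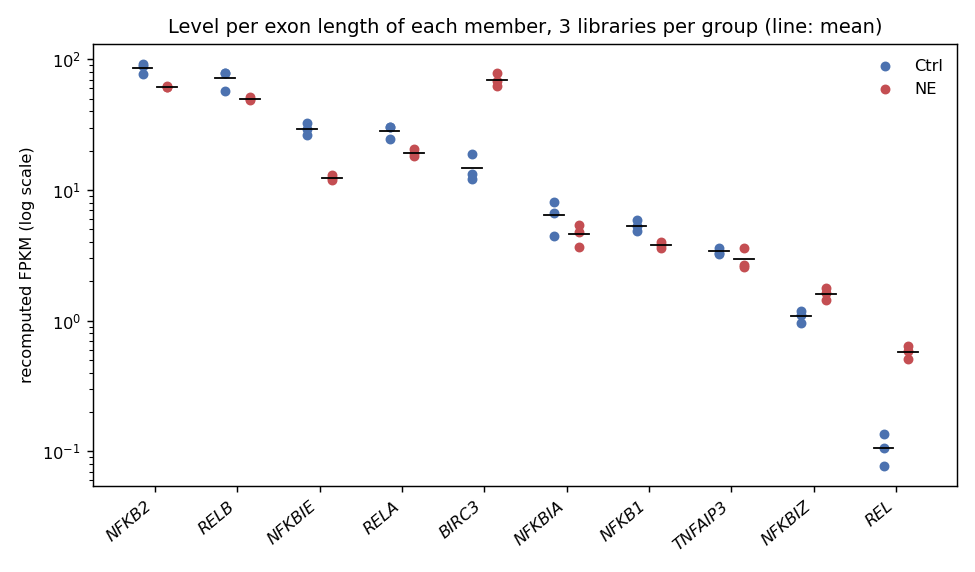
FPKM over merged exons (log axis) of the 10 members in the 3 Ctrl and 3 NE libraries. The genes of the non-canonical subunits NFKB2 and RELB head the Ctrl libraries, BIRC3 joins them in NE, and REL is lowest in both groups, at a mean of 0.107 and 0.580 FPKM.

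By Euclidean distance between log2 values centred on each gene's Ctrl mean, over the 6 libraries, the 3 genes with a pattern most like that of REL were SNRK (distance 0.162, log2 difference 2.31), HERC4 (0.446, 2.24) and CPEB4 (0.450, 2.45). SNRK had 214, 270 and 334 normalized counts in Ctrl and 1429, 1246 and 1332 in NE, with the lowest Ctrl value in replicate 1 as for REL.

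The other genes of the pathway were followed in 5 lists, of which 67 of 78 genes could be tested. Of the 67, 23 were higher and 31 lower in NE, so that 80.6% were called, beside 24.6% higher and 25.5% lower (50.1% called) among all genes tested. After GC correction 13 were higher and 24 lower, beside 14.5% and 17.7% of all genes. The counts of the single lists below are to be read against these same shares. Among the receptors that feed into NF-kB, 2 were higher and 6 lower of 11 tested (median log2 difference -0.61), and 5 of the 6 lower ones were also called after GC correction. TNFRSF12A, the receptor of TWEAK and an activator of the non-canonical arm, had 3569, 3382 and 2333 normalized counts in Ctrl and 762, 1049 and 1175 in NE, a log2 difference of -1.63 (adjusted p = 0.000314) and -0.98 after GC correction. TNFRSF1B, the second TNF receptor, differed by -1.51 and TNFRSF10A, a TRAIL receptor, by -1.01, and both kept their call after GC correction. TLR3, the receptor of double-stranded RNA, was higher by 1.26, but 0.69 after GC correction (adjusted p = 0.0782).

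Of 22 tested adaptors and ubiquitin enzymes 11 were higher and 7 lower, with a median log2 difference of 0.30. After GC correction 4 were higher and 5 lower, of which 4 in each direction were the same genes. BIRC2 had the largest difference. TNIP2, a partner of A20, differed by -1.16, TRAF2, the adaptor that recruits the cIAP proteins, by -1.01 and IRAK1, a kinase of interleukin-1 and Toll-like receptor signalling, by -0.996. All 3 remained called after GC correction, at -0.55, -0.39 and -0.35. All 11 kinase genes and their partners were called, 6 higher and 5 lower (median 0.59), and 3 and 1 of them remained called in the same direction after GC correction. The gene that remained lower was MAP3K14, which encodes NIK, with 2817, 2669 and 2384 normalized counts in Ctrl and 1252, 1190.3 and 1047 in NE. Its log2 difference was -1.17 (SE 0.11, adjusted p = 0.000132), and -0.60 after GC correction (adjusted p = 0.00190). TBK1 was higher by 0.98 and TAB3, a partner of the kinase TAK1, by 0.97, and both remained called at 0.35 and 0.38. IKBKE differed by -0.999 and lost its call (adjusted p = 0.0856 after GC correction). Of the 3 other IkB family genes only NFKBIB, the gene of IkB-beta, was called, at -0.71 (adjusted p = 0.0104), and after GC correction its difference was -0.10 (adjusted p = 0.496).

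Of 20 tested genes that are known NF-kB targets in other settings, 4 were higher and 12 lower in NE, with a median log2 difference of -1.10 beside 0.01 for all genes. After GC correction 4 were again higher and 12 lower, the 12 lower ones being the same genes and 3 of the higher ones. With a minimum mean of 50 in place of 10, and no GC correction, 2 were higher and 10 lower. Fewer genes of the list were then tested, and 59.7% of all 11949 genes tested were called, 3461 higher and 3675 lower. CXCL8, the gene of interleukin-8, had 8.38, 9.33 and 19.6 normalized counts in Ctrl and 133, 142 and 132 in NE, 10.9-fold higher, with a log2 difference of 3.44 (adjusted p = 0.000129) and 2.68 after GC correction. CXCL3 was higher by 2.39 on very low Ctrl counts of 7.33, 1.04 and 5.88. It reached the minimum mean of 10 only through its NE values, as did another of the 4 higher genes (mean 9.61 in Ctrl and 29.4 in NE). MMP9, a matrix metalloproteinase, had 71.2, 102 and 68.6 in Ctrl and 6.92, 15.5 and 11.0 in NE, a log2 difference of -2.79 (adjusted p = 0.000398) and -2.15 after GC correction. LTB, the gene of lymphotoxin beta, had 24.1, 22.8 and 23.5 in Ctrl and no read in any NE library. It thus reached the minimum mean only through its Ctrl values. With 3 reads set as the floor in each NE library LTB was at least 8.18-fold lower, and with LTB at this bound the median of the list was still -1.10. The list of targets thus held genes that moved far in both directions, as the members themselves did.

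**Figure D5:**
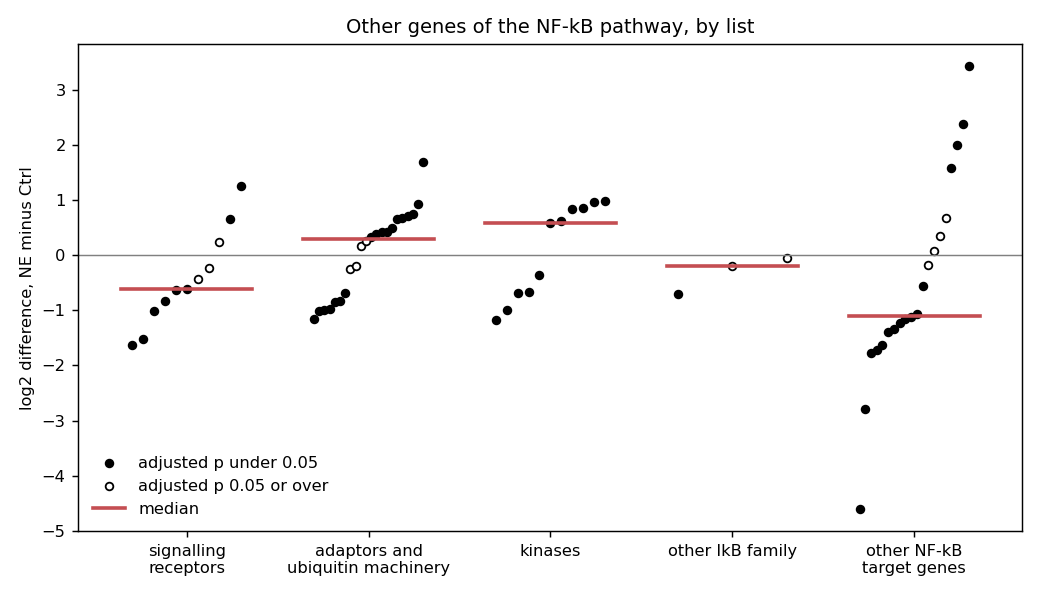
Log2 difference between NE and Ctrl for each tested gene of the 5 pathway lists, 67 genes in all, with the list medians. The NF-kB target genes spread widest, from LTB (whose fitted value depends on the pseudocount) to CXCL8 at 3.44, and the medians run from -1.10 for the targets to 0.59 for the kinases.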

How the data were processed

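RNA from 3 Ctrl and 3 NE libraries of NCI-H1299 cells was sequenced. The authors aligned reads to hg38 with HISAT2 2.0.5 and counted them per gene with featureCounts 1.5.0-p3; the strand setting is not given in the sources used here. Although FPKM is the unit named in the methods, the signal that was deposited equals the reads of each gene over a size factor of its library (0.955 to 1.09), and 100% of values were whole reads within 0.01 once this was undone. Values were compared as log2(value + 1) with limma 3.58.1 (eBayes with trend, Benjamini-Hochberg) over 15013 genes with a mean of at least 10. Fold differences on this scale understate those of low genes. GC correction subtracted, per library, a natural spline (5 degrees of freedom) on the exon GC content of GENCODE v44, known for 25813 of 26025 genes. Without molecular identifiers, read counting gives only the least possible error. Replicates differed by more than sampling noise (chi-square per degree of freedom from 2.86 to 49.4), so no library was a copy of another. This does not tell libraries of separate cultures from libraries made again from the same RNA.

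Named genes were all members, at most 4 called genes of largest difference per list and the 3 genes most like the member of largest difference. The members, lists and tests were chosen with earlier results of these data known. Target genes were listed as 28, of which 26 were in the table. The marker lists of endothelial cells and fibroblasts summed to 38.4 to 72.1 counts per library. The fits were tested on simulated data. Alternatives were other pseudocounts, minimum means and scalings, edgeR 4.0.16, DESeq2 1.42.0 and voom on the recovered reads, recomputed FPKM, GC and length corrections, a replicate block and each library left out. Corrections combined with left-out libraries and the canonical transcript length were added after seeing the data.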

Additional observations from a re-analysis of the deposited data

How the results depend on the processing

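REL, BIRC3, NFKB1 and NFKBIE kept their direction and their call under all 28 alternatives, with log2 differences from 1.55 to 2.48, 1.35 to 2.34, -1.30 to -0.47 and -1.44 to -0.58. The number of members lower in NE was 5 in the comparison as given. It was 2 under the GC correction, under the GC and length correction and under the GC correction with the replicate block. Of 14955 genes 2641, 2521 and 2003 were lower under these. When a library was left out of the GC correction 2 to 3 members were lower, beside 1741 to 3426 genes. RELA kept its sign, and the differences of NFKB2 and RELB changed sign. NFKB2 was 0.017 after GC correction with or without the replicate block, and 0.001, 0.051, 0.025 and 0.063 without Ctrl replicate 2, Ctrl replicate 3, NE replicate 2 and NE replicate 3. RELB was 0.016 with or without the block, 0.074 with length added, and 0.026, 0.042, 0.054 and 0.055 without Ctrl replicate 1, Ctrl replicate 2, NE replicate 2 and NE replicate 3. The cause was not tested. Leaving out each library without GC correction gave 2 to 3 members higher and 5 to 7 lower, with the most calls without Ctrl replicate 3. Of all genes 39.0 to 64.4% were then called. In each case 3 members were called past 2-fold, beside 816 to 1609 of all genes higher and 777 to 1512 lower. The members not overlapping were then 9 to 10, and the share of all genes was not computed for this. On the GC-corrected scale the members past 2-fold were REL, BIRC3 and NFKB1, and 2 to 3 of them when a library was left out. Of all genes 393 to 635 were then higher and 272 to 528 lower past 2-fold. The counts of the pathway lists also moved with the library left out. After GC correction lower receptors were then 3 to 5, against 6 with all libraries. Lower adaptors and ubiquitin enzymes were 3 to 7, against 5, and lower target genes stayed at 12. Of all 14955 genes 1741 to 3426 were then lower, against 2641 with all libraries. Without GC correction lower genes of the kinase list were 3 to 5, against 5, while 2958 to 4894 of all genes were lower, against 3828.

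The deviations of same-numbered libraries from their group means correlated at -0.16, 0.08 and -0.15. With 3 libraries a group and Ctrl replicate 3 standing apart, these correlations cannot show whether replicate numbers pair the libraries. With the replicate number as a block 2 members were again higher and 5 lower, and of all genes 3150 were higher and 3358 lower, against 3693 and 3828 without it. Of all genes 50.1% were called, 27.7% with no minimum mean, 32.2% after GC correction and 24.1% with the block added. Recomputed FPKM shifted the median log2 difference of all genes to 0.13 and called 4457 higher and 2942 lower. Depth limits REL most, with 23 to 42 reads per Ctrl library.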
